A study of Mus musculus with 12 samples.

Results

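The genes of respiratory complex I, the NADH dehydrogenase of the inner mitochondrial membrane, were examined in mouse cumulus cells with and without the mitochondrial protease ClpP. Members were all rows of the expression table whose symbol begins with Ndufa, Ndufb, Ndufc, Ndufs, Ndufv or Ndufaf followed by a number, plus Ndufab1. This gave 45 of the 23997 rows, and all 45 were among the 11196 genes that reached 1 FPKM (fragments scaled to transcript length and to the mapped total of the library) in at least 3 libraries. They comprised 36 subunits, 7 assembly factors (Ndufaf1 to Ndufaf7) and a pair of genes named for complex I but kept apart here, Ndufa4 and Ndufa4l2. RNA came from female C57BL/6J mice, either ClpP-/- (KO) or wild type (WT), at 3 or 6 months of age, with 3 libraries in each of the 4 groups. All of them, WT included, had been given 5 IU of pregnant mare serum gonadotropin, and cells were collected 44 h afterwards according to the treatment text, or 48 h according to the design text. Each library was built by Smart-Seq2 from 100 pooled cumulus cells of 1 mouse, so the libraries of a group are separate animals and the pool averages over cells. Fewer cells of a type and less RNA per cell cannot be told apart in such pools.

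Complex I takes electrons from NADH, passes them through a flavin and a chain of iron-sulfur clusters to ubiquinone, and pumps protons across the inner membrane. It has a peripheral arm that reaches into the matrix and carries the redox centres, and a membrane arm that pumps. The pumping core is encoded by mitochondrial DNA and is not part of the members here, which are all nuclear genes. ClpP, with its partner ClpX, degrades proteins of the mitochondrial matrix. Cumulus cells, the granulosa-lineage cells around the oocyte, supply it with metabolites such as pyruvate, and the oocyte in turn relies on mitochondrial respiration.

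Clpp, the deleted gene, stood at 88.2 FPKM or more in every WT library and at 6.63 or less in every KO library. All 8 granulosa and cumulus markers were above 0 in every library, and their summed level ran from 2860 to 7890 FPKM. Markers of other cell types were uneven. The summed level of 8 theca and stroma markers was 7200 FPKM in the 3-month KO library 3, 9620 in the 6-month KO library 3 and 944 in the 6-month WT library 3, against 2.92 to 787 elsewhere. Most of this was 1 gene, Cyp11a1, at 5940, 7990 and 695 FPKM in those 3 libraries. It was also at 724 FPKM in the 3-month KO library 1 and 547 in the 3-month WT library 3. Cyp17a1 was at 932, 1060 and 12.7 in the former and at 24.8 and 119 in the latter. Dcn was at 99, 154 and 49 in the former and at 9.02 and 11.5 in the latter. Col1a1 and Col1a2 were at 4.19 or less in every library. The 8 oocyte markers summed to 40.9 FPKM in the 3-month KO library 3 and 189 in the 6-month KO library 3, against 9.3 or less in the others. Zp1, a zona pellucida gene, was at 0 in 8 of the 12 libraries. The 8 blood and leukocyte markers in the table summed to 643 to 1340 FPKM in library 3 of every group and to 39.7 or less in the other libraries, while 5 endothelial markers summed to 4.18 to 24.3. Total depth is not stated in the table, and the spacing of its low values put the relative depth of the libraries at 0.64 to 1.0.

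Subunit transcripts were abundant. FPKM is scaled for transcript length, which allows levels to be set side by side between genes only roughly. After this scaling, other short transcripts still shifted by library, from -0.47 to 0.48 log2 units, as given below. The part of length in the ranks of level was not tested. The mean over 12 libraries ran from 53.3 FPKM for Ndufs1 to 1871 for Ndufa3, with a median over the 36 subunits of 515, against a median of 7.95 over all genes tested. Ndufs1 lay above 83.6% of the genes tested and Ndufa3 above 99.6%. The 3 highest subunits were Ndufa3 at 1871, Ndufc1 at 1425 and Ndufb8 at 1254 FPKM, all small accessory proteins of the membrane arm. The 3 lowest were Ndufs1 at 53.3, Ndufa11 at 94.8 and Ndufv1 at 120. The first and last of these are redox-centre subunits, while Ndufa11 sits in the membrane arm.

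**Figure D1:**
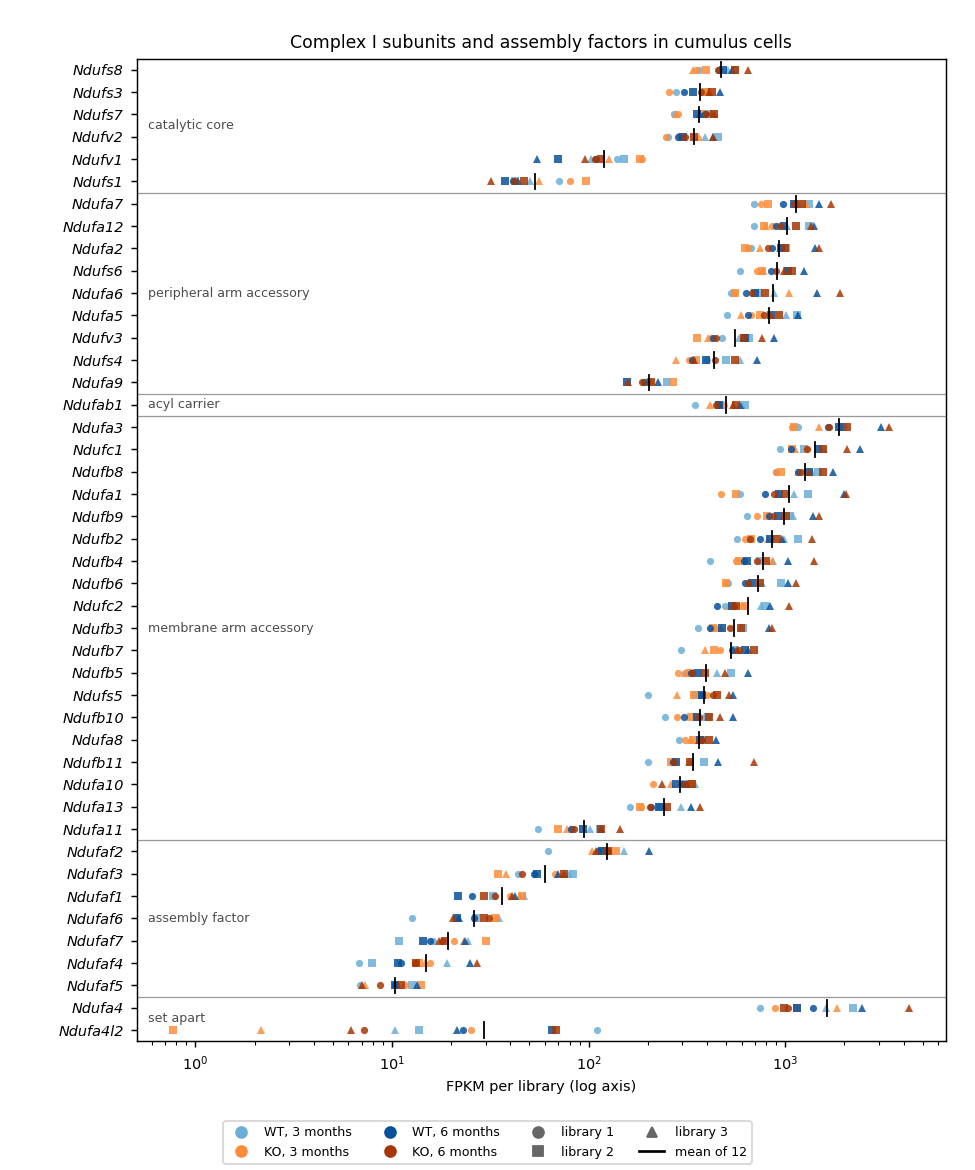
FPKM of 44 of the 45 members in each of 12 libraries (log axis), with colour for group, symbol for library number and a bar for the mean of 12. Subunits ran from 53.3 to 1871 FPKM in mean level and assembly factors from 10.4 to 124, so that most subunits lie to the right of all assembly factors.

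By role, the 7 catalytic core genes had a median of 342 FPKM, below the 869 of the 9 accessory genes of the peripheral arm and the 550 of the 19 accessory genes of the membrane arm. Within the core the levels formed a higher and a lower set. Ndufs8, which holds iron-sulfur clusters near the membrane, averaged 472 FPKM, and Ndufs3, Ndufs7 and Ndufv2 averaged 370, 366 and 342. Ndufv1, the subunit that binds NADH and flavin, averaged 120, and Ndufs1, the largest iron-sulfur subunit, 53.3. Ndufv1 and Ndufv2 sit next to each other in the NADH module, yet Ndufv1 was below Ndufv2 in all 12 libraries, with ratios from 0.127 to 0.759. Ndufab1, the mitochondrial acyl carrier protein that also serves fatty acid synthesis, averaged 499 FPKM. The values of Ndufab1, Ndufs6, Ndufb4 and Ndufa11 are uncertain, since the annotation holds a near copy of each (Ndufab1-ps, Ndufs6b, Ndufb4c and Ndufa11b) that could share reads.

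Assembly factors, which help build the complex without staying in it, were less abundant. Their means were 124 FPKM for Ndufaf2, 60.0 for Ndufaf3, 36.4 for Ndufaf1, 26.1 for Ndufaf6, 19.4 for Ndufaf7, 14.8 for Ndufaf4 and 10.4 for Ndufaf5. Even Ndufaf5, an enzyme that modifies a core subunit during assembly, lay above 55.8% of the genes tested. No member was under 1 FPKM in 10 or more libraries.

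Subunits varied less between libraries of a group than the median gene did. The pooled within-group SD of log2(FPKM + 1) had a median of 0.34 over the 36 subunits and 0.50 over all genes tested. Part of the genes tested are low, so the 1830 genes with a mean at or above that of Ndufs1 are the closer comparison, and their median was 0.39. The 3 steadiest subunits were Ndufa8 (SD 0.15), Ndufs7 (0.20) and Ndufs8 (0.22). The 3 most variable were Ndufa1 (0.62), Ndufa6 (0.61) and Ndufb11 (0.49). For Ndufa1, a small membrane-arm subunit encoded on the X chromosome, library 3 was the highest of its group in both 6-month groups and in 3-month KO, with 922 FPKM there, 2001 in 6-month WT and 2046 in 6-month KO.

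**Figure D2:**
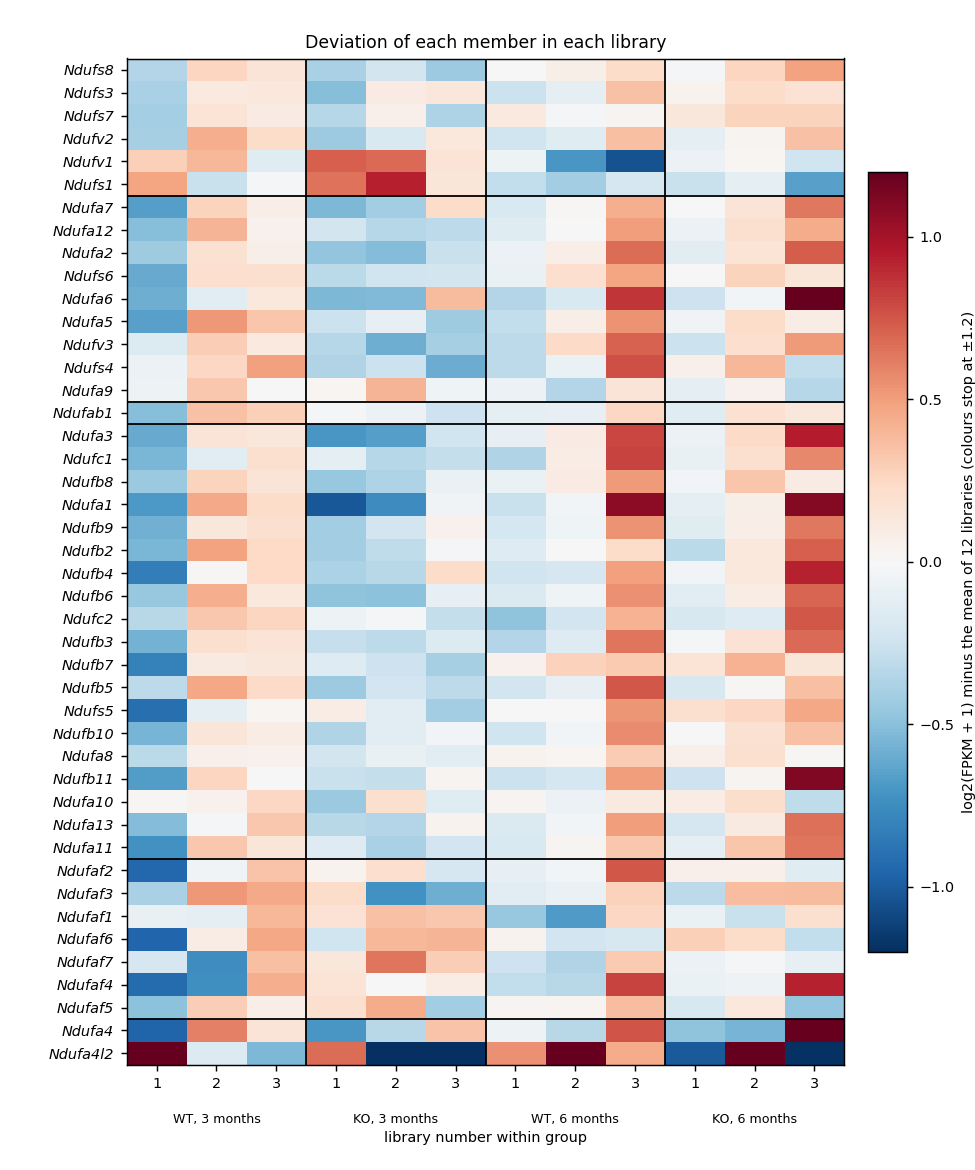
Deviation of each of 44 members from its own mean over 12 libraries, in log2(FPKM + 1), with 1 column per library and the roles separated by lines; colours stop at 1.2 in either direction. Most subunits are low together in the 3-month WT library 1 and high together in library 3 of both 6-month groups, while Ndufs1 and Ndufv1 run against most of the core subunits.

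The subunits shifted together from library to library. Their median deviation from the mean of 12 libraries was -0.51, 0.22 and 0.14 log2 units in the 3-month WT libraries and -0.34, -0.24 and -0.14 in the 3-month KO libraries. It was -0.18, -0.04 and 0.50 in the 6-month WT libraries and -0.08, 0.18 and 0.45 in the 6-month KO libraries. WT libraries of the same age thus spanned more than the groups differed, and the 3-month KO libraries lay inside the range of 3-month WT. Subunits made up 2.41, 2.87 and 3.20% of the FPKM sum without small RNA in 3-month WT and 2.59, 2.49 and 2.89% in 3-month KO. They made up 2.99, 3.40 and 3.76% in 6-month WT and 3.27, 3.53 and 3.77% in 6-month KO. By this share every 6-month KO library was above every 3-month KO library, while the WT ages overlapped.

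Other short transcripts moved with them. The 870 other genes tested whose principal transcript is at most 1000 bases long had median deviations of -0.47, 0.08 and 0.20 in 3-month WT and -0.28, -0.23 and 0.06 in 3-month KO. At 6 months theirs were -0.13, -0.09 and 0.48 for WT, with -0.15, 0.02 and 0.42 for KO. The 9722 other genes with longer transcripts stayed between -0.05 and 0.05. The part of transcript length in the subunit values was not tested.

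**Figure D3:**
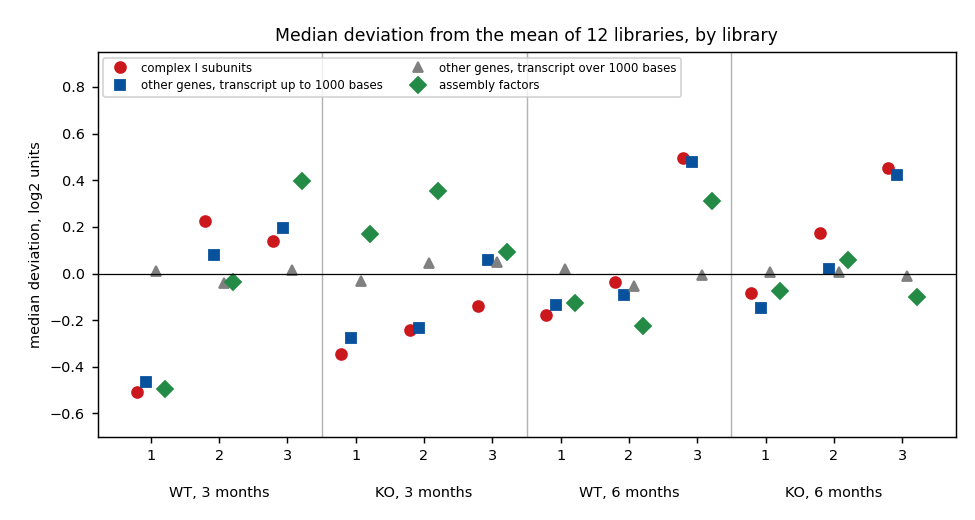
Median deviation from the mean of 12 libraries, in log2 units, for 36 subunits, 7 assembly factors and 870 and 9722 other genes with transcripts up to or over 1000 bases, by library. Subunits and other short transcripts run side by side from -0.51 to 0.50, while longer transcripts stay between -0.05 and 0.05. Assembly factors lie close to the subunits in some libraries, such as the 3-month WT library 1 (-0.495 and -0.508). They lie above the subunits in all 3-month KO libraries and below them in the 6-month KO library 3 (-0.10 against 0.45).

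The first comparison asks what loss of ClpP does to these genes at 3 months. No member passed in KO against WT (0 of 45 with an adjusted p under 0.05 by limma, smallest 0.747), where 1 of the 11196 genes tested, or 0.00893%, did. At an unadjusted p under 0.05 the count was also 0, against 6.8% of all genes. Of the 36 subunits, 30 had a log2 difference below 0 and 6 above, with a median of -0.17, while 48.7% of all genes were below 0 and their median was 0.01. That sign depends on scaling. With libraries set to equal sums without small RNA the median over all genes was 0.12 and the subunit median -0.03, with 14 of 36 above 0, and with quantile normalisation the subunit median was 0.02, with 19 above 0. Without the 3-month WT library 1 the subunit median was -0.41, and without WT library 2 or 3 it was -0.06, so the size rests on single WT libraries.

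Ndufs4 and Ndufv3 were the members whose KO libraries all lay below the WT libraries at this age, where 5.22% of all genes did so. Ndufs4 (chromosome 13, 114287795 to 114388258, minus strand, GRCm38) encodes a small subunit of the peripheral arm whose loss is a known cause of Leigh syndrome. Its WT libraries stood at 398, 499 and 589 FPKM, and its KO libraries at 326, 351 and 278. The groups did not overlap, and limma gave a log2 difference of -0.63 (SE 0.30, n = 3, adjusted p = 0.747). Ndufv3 (chromosome 17, 31520115 to 31531331, plus strand), an accessory subunit of the NADH module, had WT values of 476, 654 and 579 FPKM, with 420, 355 and 403 for KO, a difference of -0.53 (SE 0.29, limma adjusted p = 0.768). Neither passed.

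A contrary difference was seen in part of the core. Ndufs1 stood at 70.8, 42.0 and 50.1 FPKM in 3-month WT and at 80.3, 97.4 and 56.2 in 3-month KO. The groups overlapped through KO library 3, and the log2 difference was 0.51 (SE 0.28, limma adjusted p = 0.768). Ndufv1 also had a difference above 0, at 0.34 (SE 0.29), whereas Ndufs3, Ndufs7, Ndufs8 and Ndufv2 ran from -0.37 to -0.04. The accessory subunits were nearly all below 0, in 8 of 9 of the peripheral arm and 17 of 19 of the membrane arm. Among assembly factors 6 of 7 were above 0, with a median of 0.23.

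At 6 months the subunits did not repeat the 3-month direction. Again 0 of 45 members passed (limma, smallest adjusted p 1.00), where 3 genes or 0.0268% of those tested did, and 0 members had an unadjusted p under 0.05, against 1.22% of all genes. The subunit median was 0.10, with 26 of 36 above 0, against a median of 0.01 and 51.5% of all genes. The median was on the other side of 0 without the 6-month WT library 1, at -0.03, and without the 6-month KO library 3, at -0.01. Ndufs7, an iron-sulfur subunit of the ubiquinone site, was the member whose KO libraries all lay above WT, at 397, 434 and 434 FPKM against 392, 356 and 369. For comparison, 3.79% of all genes had KO above WT without overlap and 3.01% had KO below it, and the highest WT and lowest KO values of Ndufs7 were close. Ndufv1 had the smallest unadjusted p, with WT at 109, 69.5 and 54.5 FPKM against KO at 108, 116 and 95.9, a difference of 0.51 (SE 0.29, limma adjusted p = 1.00). The next members were Ndufaf5 at -0.33 (SE 0.33), Ndufb4 at 0.32 (SE 0.35) and Ndufa4l2 at -1.04 (SE 1.16), each within about 1 SE of 0. Without the 6-month WT library 3 Ndufv1 was at 0.28, and without the 6-month KO library 3 Ndufaf5 was at -0.18 and Ndufb4 at 0.03.

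Averaged over both ages, 0 of 45 members passed (limma, smallest adjusted p 0.783), against 0.0179% of all genes. At an unadjusted p under 0.05 there were 0 members and 5.96% of all genes. The subunit median was -0.02, with 14 of 36 above 0 and 22 below, where 51.1% and 48.9% of all genes were, and was 0.03 under either other scaling, so no direction can be given. Ndufv1 had the smallest unadjusted p, with a difference of 0.42 (SE 0.20, limma adjusted p = 0.783), followed by Ndufa4l2 at -1.69 (SE 0.82), Ndufs4 at -0.35 (SE 0.21) and Ndufv3 at -0.29 (SE 0.20). Without library 3 of both KO groups and of 6-month WT, Ndufs4 was at -0.05, and without the 6-month WT library 3 alone Ndufs4 and Ndufv3 were at -0.19 and -0.17. The test of whether the KO effect differed between ages called 0 of 45 members (limma, smallest adjusted p 1.00), against 0.00893% of all genes, with 0 members and 2% of genes at an unadjusted p under 0.05. The subunit median of that difference was 0.30, with 32 of 36 above 0 and 4 below, against 50.8% and 49.2% of all genes, and it was 0.13 with equal sums, where the median of all genes was -0.13, and 0.08 with quantile normalisation. It ran from 0.16 without the 3-month WT library 2 to 0.55 without the 3-month WT library 1. The members with the smallest unadjusted p were Ndufs8 at 0.51 (SE 0.32), Ndufaf3 at 0.68 (SE 0.48), Ndufs1 at -0.55 (SE 0.40) and Ndufs4 at 0.55 (SE 0.43).

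Age was then compared within each genotype. These contrasts reuse the libraries of the KO comparisons, so the 3-month KO values enter both. In WT, 0 of 45 members passed at 6 against 3 months (limma, smallest adjusted p 0.664), against 0.00893% of all genes. The subunit median was 0.13, with 26 of 36 above 0 against 51.9% of all genes. With equal sums it was 0.23, with 31 of 36 above 0 and a median over all genes of 0.10, and with quantile normalisation it was 0.23, with 32 above 0. It was -0.11 without the 3-month WT library 1 and -0.08 without the 6-month WT library 3, so its sign rests on those libraries. No member had WT groups without overlap, where 7.94% of genes were higher and 7.81% lower at 6 months in that way.

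Ndufv1 (chromosome 19, 4007384 to 4012806, minus strand) was the 1 member with an unadjusted p under 0.05 in WT, where 7.44% of all genes had one. It stood at 139, 151 and 103 FPKM at 3 months and 109, 69.5 and 54.5 at 6 months. The ages overlapped only between the lowest 3-month and the highest 6-month library, with a log2 difference of -0.78 (SE 0.29, limma adjusted p = 0.664). The next were Ndufs5 at 0.51 (SE 0.28), Ndufb7 at 0.40 (SE 0.26) and Ndufs1 at -0.37 (SE 0.28), none of which passed. Without the 3-month WT library 1 these were at 0.22, 0.09 and -0.17. Ndufs5 and Ndufb7 are small membrane-arm subunits of the intermembrane space side.

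In KO, 0 of 45 members passed at 6 against 3 months (limma, smallest adjusted p 0.745), where 0.0179% of all genes did. Of the 36 subunits, 32 were above 0 and 4 below, with a median of 0.44, against 50.8% and 49.2% of all genes and a median of 0.01. The direction held under both other scalings, with 32 of 36 above 0 and medians of 0.36 with equal sums and 0.31 with quantile normalisation, and the median was 0.29 to 0.53 on leaving out each KO library in turn. All 19 accessory genes of the membrane arm were above 0, from 0.13 for Ndufa10 to 0.96 for Ndufa1, as were 8 of 9 of the peripheral arm and 4 of 7 of the core. The assembly factors had a median of -0.12, with 2 of 7 above 0. Age in WT and in KO was not shown to differ for any member, since the test of that difference is the 1 given above, which called 0.

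The 6-month KO libraries all lay above the 3-month KO libraries for 17 members, where 6.82% of all genes did so, and all below for 3, where 5.98% did. The 17 were Ndufs7 and Ndufs8 of the core, Ndufa2, Ndufa5, Ndufa12, Ndufs6 and Ndufv3 of the peripheral arm, and Ndufa3, Ndufa8, Ndufa11, Ndufb3, Ndufb5, Ndufb7, Ndufb8, Ndufb10, Ndufc1 and Ndufs5 of the membrane arm. The 3 were Ndufs1, Ndufv1 and Ndufaf7. Without library 3 of both KO groups and of 6-month WT, the libraries highest in theca and stroma markers, the counts were 27 higher and 7 lower. All the 17 and the 3 are among them by design, since leaving out libraries cannot make separate groups overlap. The shares of all genes were 24.7% and 23.7%, with fewer libraries to separate. The subunit median was then 0.33. Without the 3-month KO library 3 alone 26 members were higher, where 17.2% of all genes were, and without the 3-month KO library 1 the number lower was 6, where 10.7% of all genes were. The summed theca and stroma markers were 787, 2.92 and 7200 FPKM at 3 months and 6.87, 213 and 9620 at 6 months in KO, and their part in the rest of the result was not tested.

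**Figure D4:**
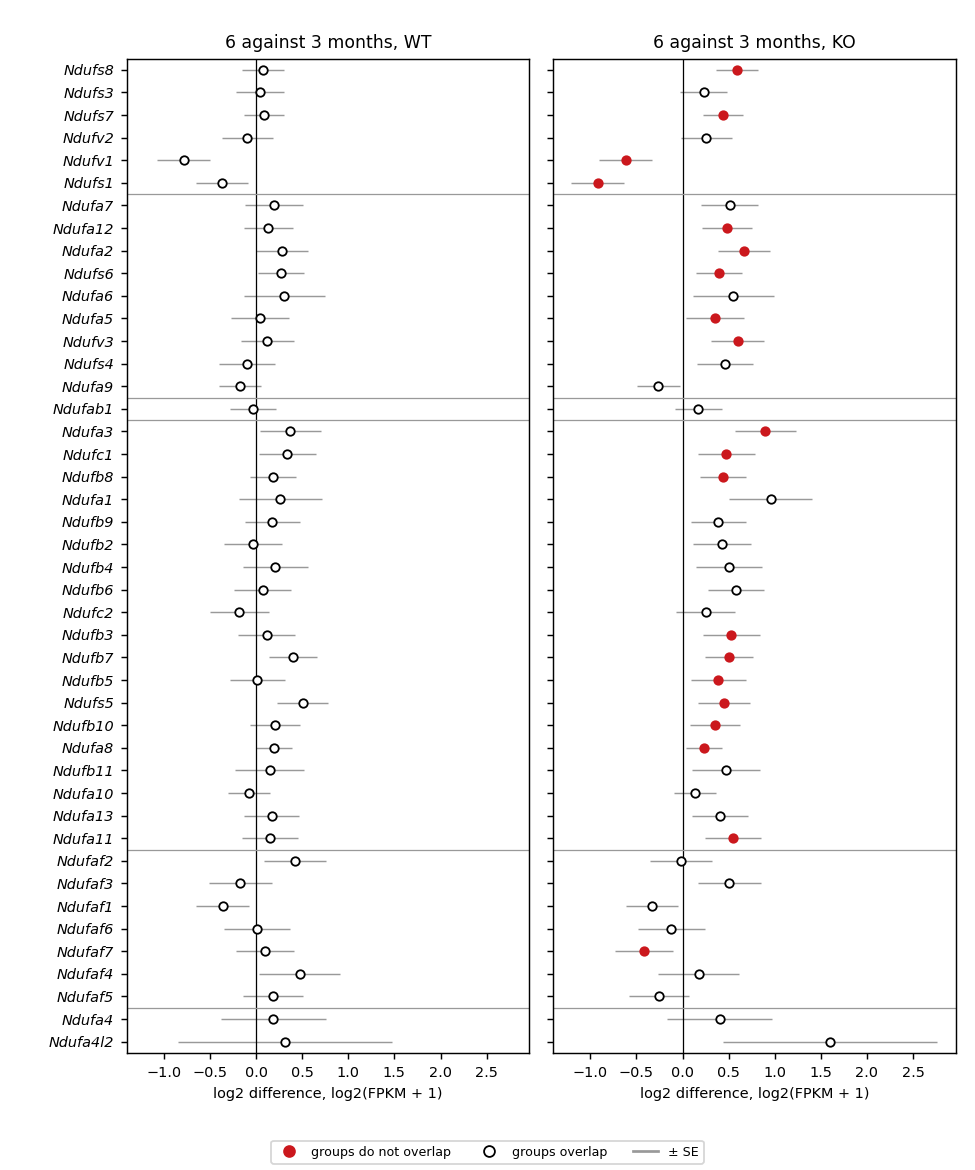
Difference between 6 and 3 months in log2(FPKM + 1) for 44 of the members, in WT on the left and KO on the right, with bars of 1 SE; filled red points have no overlap between the 3 libraries of each age. Red points appear in the KO panel, 17 above 0 and 3 below, and none in the WT panel, and no member passed the test in either.

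Of the members, 4 had an unadjusted p under 0.05 for age in KO, where 6.48% of all genes did. Ndufs1 (chromosome 1, 63143596 to 63176833, minus strand) stood at 80.3, 97.4 and 56.2 FPKM at 3 months and 41.9, 46.8 and 31.8 at 6 months. All 6-month values were below all 3-month values, a difference of -0.92 (SE 0.28, limma adjusted p = 0.745). Ndufa3 (chromosome 7, 3617373 to 3620327, plus strand), the most abundant subunit, stood at 1085, 1113 and 1491 FPKM at 3 months and 1670, 2064 and 3383 at 6 months. The ages did not overlap, though library 3 was the highest at each, and the difference was 0.90 (SE 0.33, limma adjusted p = 0.745).

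Ndufs8 (chromosome 19, 3908863 to 3912774, minus strand) stood at 352, 398 and 341 FPKM in 3-month KO and 455, 554 and 647 in 6-month KO, again without overlap, with a difference of 0.59 (SE 0.22, limma adjusted p = 0.745). In WT the same gene overlapped between ages, at 363, 553 and 515 FPKM and then 462, 485 and 539. Ndufa2 (chromosome 18, 36742332 to 36744557, minus strand), a small subunit of the peripheral arm with a thioredoxin-like fold, stood at 647, 625 and 743 FPKM in 3-month KO and 817, 1003 and 1481 in 6-month KO. Its difference was 0.67 (SE 0.28, limma adjusted p = 0.745), and 0.43 without the 6-month KO library 3.

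**Figure D5:**
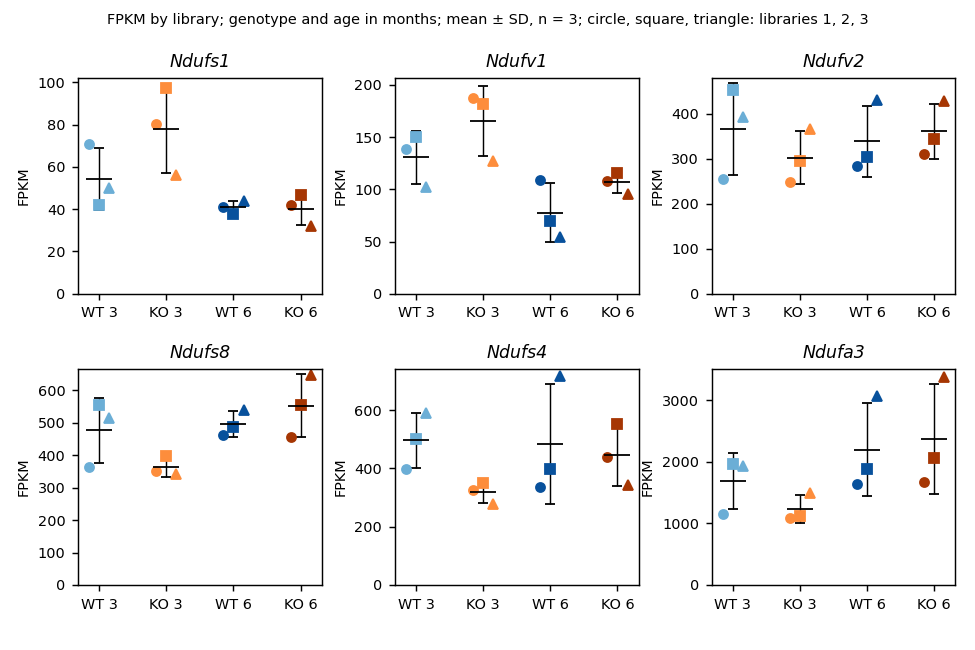
FPKM of 6 subunits by library, with the mean and SD of 3 libraries for each genotype and age in months. Ndufs1 and Ndufv1 are lower in all 6-month KO libraries than in all 3-month KO libraries, Ndufs8 and Ndufa3 are higher in all of them, and Ndufv2 and Ndufs4 overlap between the KO ages.

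Ndufv1 and its partner in the NADH module, Ndufv2, are set side by side. In KO, Ndufv1 stood at 188, 182 and 127 FPKM at 3 months and 108, 116 and 95.9 at 6 months, a difference of -0.61 (SE 0.29). Ndufv2 stood at 247, 295 and 366 FPKM and then 311, 344 and 428, a difference of 0.26 (SE 0.28), within 1 SE of 0 and with the ages overlapping. In WT both were below 0, Ndufv1 at -0.78 and Ndufv2 at -0.10 (SE 0.28). The ratio of Ndufv1 to Ndufv2 was 0.759, 0.618 and 0.348 in 3-month KO and 0.349, 0.336 and 0.224 in 6-month KO. In WT it was 0.545, 0.332 and 0.262 at 3 months and 0.384, 0.229 and 0.127 at 6 months. The ages touched in KO, where the lowest 3-month and highest 6-month ratios were 0.348 and 0.349, and overlapped more widely in WT.

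Transcript length moved with the age differences. Of 23 members with principal transcripts of at most 1000 bases, 22 were above 0 in KO, with a median of 0.47, and of the 22 longer members 14 were, with a median of 0.20. Among other genes tested 74.9% of the 870 short ones were above 0, with a median of 0.27, and 48.3% of the 9722 longer ones, with a median of -0.02. In WT 22 of 23 short members were above 0, with a median of 0.19, and 11 of 22 longer ones, while 64.6% of other short genes were. Longer members did not all move alike in KO. Ndufv1 (1661 bases) was at -0.61, while Ndufv2 (1697 bases), Ndufs4 (1698 bases) and Ndufv3 (1582 bases) were at 0.26, 0.46 and 0.60. The classes depend on the transcript taken for each gene, which put Ndufb2 (4371 bases) and Ndufab1 (3479 bases) among the longer members. The annotation behind the FPKM values may hold other lengths. The part of length in the age differences was not tested.

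Promoters of 3 members that were higher without overlap in 6-month KO are shown, chosen because each holds a match to the NRF1 motif, beside that of Ndufv1, which was lower. They do not stand for the 17: of these, 16 had a RefSeq promoter, 5 of the 16 (31.2%) held the NRF1 motif and 11 did not. The 250 bases before the start of each gene are from RefSeq (GRCm38.p6), 5′ to 3′ on the gene's strand, with capitals for matches to the NRF1 motif (GCGCA, any base, then GCGC) or the ERR motif AAGGTCA on either strand. NRF1 and ERR factors are known regulators of nuclear genes for respiration. Ndufs5 lies at chr4:123718187-123718436 (minus strand), Ndufs6 at chr13:73328483-73328732 (minus), Ndufa11 at chr17:56717512-56717761 (plus) and Ndufv1 at chr19:4012756-4013005 (minus).
Ndufs5: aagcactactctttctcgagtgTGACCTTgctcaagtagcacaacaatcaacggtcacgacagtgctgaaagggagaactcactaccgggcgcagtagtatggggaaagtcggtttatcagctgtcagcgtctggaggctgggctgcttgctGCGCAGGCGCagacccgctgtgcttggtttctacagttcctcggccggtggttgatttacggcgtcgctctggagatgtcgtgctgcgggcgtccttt
Ndufs6: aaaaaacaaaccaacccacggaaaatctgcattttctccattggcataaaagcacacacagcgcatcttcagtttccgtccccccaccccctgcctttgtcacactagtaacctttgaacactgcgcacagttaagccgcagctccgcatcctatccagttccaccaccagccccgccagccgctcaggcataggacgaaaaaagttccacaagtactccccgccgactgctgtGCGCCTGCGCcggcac
Ndufa11: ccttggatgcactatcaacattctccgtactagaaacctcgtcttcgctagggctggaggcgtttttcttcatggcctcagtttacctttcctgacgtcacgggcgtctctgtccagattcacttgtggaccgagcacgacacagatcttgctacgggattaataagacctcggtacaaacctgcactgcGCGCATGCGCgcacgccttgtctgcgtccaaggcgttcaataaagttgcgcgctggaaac
Ndufv1: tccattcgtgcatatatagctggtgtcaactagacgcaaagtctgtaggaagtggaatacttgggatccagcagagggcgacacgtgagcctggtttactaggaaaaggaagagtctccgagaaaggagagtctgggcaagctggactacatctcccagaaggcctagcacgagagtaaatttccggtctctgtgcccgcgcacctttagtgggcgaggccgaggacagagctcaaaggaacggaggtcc
The NRF1 match begins 98 bases before the start in Ndufs5, 16 before it in Ndufs6 and 60 before it in Ndufa11, and Ndufs5 also has an ERR match beginning 228 bases before the start. No match to either motif is in the Ndufv1 window.

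Over windows from 250 bases before to 50 after the start, 39 of the 45 members had a RefSeq promoter. The NRF1 motif was in 9 of the 39 (23.1%), against 5.19% of all 27025 promoters and 12.3% of those of genes tested. The 9 were Ndufa5, Ndufa6, Ndufa8, Ndufa11, Ndufs5, Ndufs6, Ndufb4, Ndufaf4 and Ndufaf5. The ETS motif CCGGAAG was in 5 members (12.8%; 21.4% of genes tested), the YY1 motif AAGATGG in 7 (17.9%; 8.84%) and the ERR motif in 3 (7.69%; 3.91%). At least 1 of these motifs was in 21 of 39 (53.8%), against 39.3% of genes tested, all on both strands and with no overlapping matches in a member. Ndufa11 also lies 268 kb from Clpp on chromosome 17, and stood at 55.0, 115 and 102 FPKM in 3-month WT and 82.5, 69.8 and 78.1 in 3-month KO, with the KO values inside the WT range.

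Among assembly factors, Ndufaf7, a methyltransferase that acts during assembly, stood at 20.7, 29.9 and 23.2 FPKM in 3-month KO and 17.9, 18.5 and 17.4 in 6-month KO. The ages did not overlap, with a difference of -0.42 (SE 0.32). In WT it stood at 16.1, 10.8 and 24.4 FPKM at 3 months and 15.7, 14.4 and 23.5 at 6 months, which overlapped. Ndufaf3, which works early in assembly with Ndufaf4, differed from the other assembly factors at 3 months, with WT at 43.9, 83.2 and 79.3 FPKM against KO at 67.5, 34.5 and 38.0, a difference of -0.56 (SE 0.34). The other 6 lay between 0.11 and 0.55 in that contrast.

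Assembly and maturation factors without the Ndufaf name gave 13 tested genes, and 0 passed in any of the 6 contrasts. At 3 months 10 of 13 were above 0 in KO against WT, with a median of 0.42, against 51.2% of all genes and a median of 0.01. How this count depends on scaling was not examined. Some of the 13 were low, with means of 1.81 FPKM for Timmdc1 and 2.74 for Tmem186. Atp5sl, now called Dmac2, had WT values of 7, 6.16 and 11.8 FPKM against 18, 14.8 and 13.6 for KO, without overlap, a difference of 0.86 (SE 0.32, limma adjusted p = 0.69), where 5.02% of all genes were higher without overlap. It was at 0.38 (SE 0.32) at 6 months and 0.62 (SE 0.23) averaged. Sfxn4, a low gene with a mean of 2.37 FPKM over all libraries, had WT values of 2.81, 4.72 and 3.92 FPKM. Its KO values were 0.668, 0.763 and 2.88, with overlap, a difference of -1.08 (SE 0.47), and -0.75 (SE 0.33) averaged.

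Acad9, an acyl-CoA dehydrogenase relative required for complex I assembly, stood at 14.4, 16.5 and 11.5 FPKM in 3-month KO and 7.40, 7.07 and 1.31 in 6-month KO. The ages did not overlap, and the difference was -1.48 (SE 0.46, limma adjusted p = 0.745). In WT it stood at 11.1, 6.17 and 6.43 FPKM and then 8.67, 6.07 and 5.83. The KO effect was 0.79 (SE 0.46) at 3 months, where all KO libraries lay above all WT libraries, and -0.53 (SE 0.46) at 6 months. The difference of the KO effect between ages was -1.32 (SE 0.66), and none of these passed. Nubpl, which delivers iron-sulfur clusters to complex I, stood at 56.4, 71.2 and 65.9 FPKM in 3-month KO and 51.2, 43.3 and 32.9 in 6-month KO, also without overlap, a difference of -0.61 (SE 0.27). For Aifm1 the KO effect differed between ages by -0.64 (SE 0.47), and in WT Tmem186 and Tmem261 (now Dmac1) were at 0.83 (SE 0.50) and 0.31 (SE 0.28) with age.

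Ndufa4, now assigned to complex IV, averaged 1639 FPKM and was highest in the 6-month KO library 3, at 4261, against 1033 and 980 in the other libraries of that group. Ndufa4l2, a related gene induced in low oxygen in many cells, was the most variable member, with an SD of 1.70. It stood at 111, 13.7 and 10.4 FPKM in 3-month WT, 25.2, 0.772 and 2.16 in 3-month KO, 23.1, 65.1 and 21.4 in 6-month WT and 7.18, 68.4 and 6.22 in 6-month KO. Single libraries were high in each group and the groups overlapped at both ages. Its difference in KO against WT was -2.33 (SE 1.16, limma adjusted p = 0.747) at 3 months, and -1.29 there without WT library 1, whose 111 FPKM was the highest of the 12.

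The nuclear genes of the other respiratory complexes and those of the mitochondrial ribosome, which translates the pumping core, are given for comparison. For age in KO 39 genes of complexes II to V had a median of 0.35, with 31 above 0, and the 77 mitochondrial ribosomal protein genes a median of 0.01, with 39 above 0. For KO against WT at 3 months the medians were -0.18, with 29 of 39 below 0, and 0.02, with 36 of 77 below 0. The differences between these lists and the complex I subunits were not tested.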

How the data were processed

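RNA was measured in 12 libraries of mouse cumulus cells as 75 bp paired-end reads (Smart-Seq2, Nextera XT). FPKM values were deposited by the authors, who per the submitters' processing notes used the GRCm38/mm10 genome. Those notes also list Cufflinks 1.2.1, TopHat2 2.0.10 with Bowtie2 2.1.0, cutadapt, SAMtools 0.1.18 and FastQC. Which gene annotation was used is not stated in the labels. Counts were not used, so no counting interval can be given, and low FPKM values carry the error of few reads.

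From these values log2(FPKM + 1) was taken for genes with at least 1 FPKM in at least 3 libraries. One limma 3.58.1 model (R 4.3.3) of 4 group means with eBayes and trend (8 residual and 3.9 prior degrees of freedom) gave 6 contrasts. Values of 1 core subunit enter the counts and medians but are not reported here. P-values are 2-sided and adjusted by Benjamini and Hochberg over 11196 genes, with a threshold of 0.05. A fold on the log2(FPKM + 1) scale understates changes of low genes. The script was tested on simulated data, with independent libraries and shifts larger than any subunit difference here, placed in genes of low variance. That run does not show what could be detected at the differences seen here.

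Members and lists were chosen with earlier results of these data known. The naming rule took, per contrast, members that passed and up to 4 others by smallest unadjusted p (2 for other assembly factors), plus the core subunits, assembly factors and extremes of level and spread. The list of complexes II to V leaves out Atp5sl, an assembly factor that its pattern took in. Members singled out for groups that do not overlap, and Ndufv2, Ndufa11 and Ndufa1, were named after their values were seen. Coordinates and lengths are from GENCODE M21 on GRCm38, where all 45 members matched, and promoters from RefSeq GRCm38.p6. Python 3.11.15, numpy 2.4.6, pandas 2.3.3 and matplotlib 3.10.9 were used.

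The labels do not say that a library number marks a shared animal, and the libraries are from separate mice. Same-numbered libraries deviated together for age in KO, with correlations of 0.114, 0.394 and 0.653, and between genotypes at 6 months, with 0.158, 0.373 and 0.465. Each is over 0.1, the limit used here to count numbers as pairing, but libraries 1 and 2 correlated with each other's number at 0.364 and 0.514 for age in KO, and at 0.2 and 0.475 at 6 months. All values reported come from the fit without a block, which is an alternative. Library 3 in those groups was high in other-cell markers, and the part of this in the correlations was not tested. No 2 of the 66 pairs of libraries were identical.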

Additional observations from a re-analysis of the deposited data

How the results depend on the processing

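No member passed in any of the 6 contrasts under any alternative run: pseudocounts of 0.1 and 5, no filter or a filter at 5 FPKM, equal sums without small RNA, quantile normalisation, eBayes without trend, the compared groups alone (not for the averaged effect and the difference between ages), a replicate block, and each library left out. The fit without library 3 of both KO groups and of 6-month WT, and the alternatives of the counts without overlap, were chosen after seeing the data. Over 424 values of the 24 named member results 0 changed direction and the smallest adjusted p was 0.297, while 35 values of 15 results moved by over 1.5 times, among them Ndufaf5 at 6 months, at -0.07 without those 3 libraries. Many of the 424 could not change direction. Runs that alter only the filter, the trend, the groups fitted or the block leave a log2 difference as it was. The 24 were also picked by smallest unadjusted p in these same data, which favours a stable direction. The replicate block left 0 members called in every contrast, with a smallest limma adjusted p of 0.467. It cannot move a difference, since each library number occurs in every group, so the subunit median for age in KO was 0.44 by design. Members higher without overlap for age in KO numbered 17 to 26 on leaving out each KO library, where 9.57 to 17.2% of all genes did so, and 27 without those 3 libraries together (24.7%). Members lower numbered 3 to 6 (8.74 to 16.2%), and 7 without those 3 (23.7%). Leaving out libraries can only keep or raise these counts, so 17 and 3 are their floor by design. Both other scalings gave 13 higher and 4 lower, with 5.07 and 6.7% of all genes at equal sums and 6.46 and 5.48% at quantile normalisation. Of the 17 members higher in the main run, 11 stayed so at equal sums and 12 at quantile normalisation. The 3 lower members stayed lower under both. With 3 libraries a group and no counts, the SE of a difference between 2 groups was 0.20 (Ndufa8) to 0.45 (Ndufa1) log2 units over the subunits, which limits what could be seen.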
